A study of Mus musculus with 4 samples.

Results

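The Dlk1 to Dio3 domain is an imprinted stretch of distal mouse chromosome 12, measured here as 92 array probes in 11 runs of neighbouring probes, out of 14121 such runs on the array. The probes were taken because they lie in chr12:109500000-111040000, at the far end of a stretch (106263981 to 111039302) where the whole DNA of 1 of the 4 cell samples gave a low signal. That signal, and every measure of the same sample set against wild type, is therefore a description and no test. The members were chosen by these positions, which are those of the array files. No source at hand names their genome build.

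In each of 4 samples of cultured mouse embryonic stem (ES) cells, DNA carrying methylated cytosine was pulled down with an antibody (MeDIP) and hybridised in Cy5 to an array of CpG islands, against the sample's own whole DNA in Cy3. The samples were the Parp-1 deficient line 210-58, the Parp-1 deficient line 226-47, the line J1 treated with the Parp inhibitor PJ34, and untreated wild type J1, from which both deficient lines were derived. Parp-1 is an enzyme that adds poly(ADP-ribose) to proteins, and PJ34 inhibits enzymes of that family. Each sample was measured on 1 array. The 2 deficient lines, called clones below, are the only replicates, and whether they came from separate targeting events is not stated in the labels, nor are the dose and duration of PJ34. The Parp1 locus was not analysed here.

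In mouse the domain holds protein-coding genes expressed from the paternal chromosome and noncoding RNA genes expressed from the maternal one. Dlk1 encodes a membrane protein related to Notch ligands, Rtl1 a protein derived from a retrotransposon, and Dio3 the deiodinase that inactivates thyroid hormone. Meg3, Rian and Mirg are long noncoding RNAs, with many microRNAs and small nucleolar RNAs among them. A control region between Dlk1 and Meg3 carries methylation on the paternal chromosome from the germ line onward, and methylation over the Meg3 promoter follows it. In cultured mouse pluripotent cells this domain is known for variable imprinting.

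Probes carry a position and no gene in the files used here, so names were taken from spacing. When the RefSeq gene starts of chromosome 12 (GRCm38.p6) were slid along the probe positions in steps of 500 bp, 1 shift placed a start within 500 bp of 51 of 98 runs between 106 and 114 Mb. No other shift more than 5 kb from it, of 8001 tried, placed more than 12. With that shift, 5 runs lay within 1500 bp of a gene start: those of Begain, Dlk1, Dio3 with its antisense neighbour Dio3os, Ppp2r5c, and the noncoding B930059L03Rik. No run lay inside Meg3, Rtl1, Rian or Mirg. The largest gap without a run extended over 658.9 kb, from 109976323 to 110635195, and it took in the starts of Meg3, Rian and Mirg and of 57 microRNA hairpins, so that of the 4 genes the domain is best known for, Dlk1 was measured by 2 runs and Dio3 by 1, and Meg3 and Rtl1 by none.

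The promoters of the 4 protein-coding genes whose starts the runs cover are printed because the antibody binds methylated cytosine and the array was built on CpG islands. Each is the RefSeq stretch from 250 bases before to 50 after the gene's start, in build GRCm38.p6, 5′ to 3′ on the gene's own strand, with each CG dinucleotide in capitals. These positions are of another build than those of the array files.
Dlk1, chr12:109452573-109452872, plus strand: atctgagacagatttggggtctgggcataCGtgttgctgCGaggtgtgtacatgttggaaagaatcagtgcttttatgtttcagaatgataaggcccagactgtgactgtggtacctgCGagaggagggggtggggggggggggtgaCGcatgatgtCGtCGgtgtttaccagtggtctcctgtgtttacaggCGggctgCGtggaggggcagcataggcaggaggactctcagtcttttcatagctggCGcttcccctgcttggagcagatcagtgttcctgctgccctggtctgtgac
Dio3, chr12:110278980-110279279, plus strand: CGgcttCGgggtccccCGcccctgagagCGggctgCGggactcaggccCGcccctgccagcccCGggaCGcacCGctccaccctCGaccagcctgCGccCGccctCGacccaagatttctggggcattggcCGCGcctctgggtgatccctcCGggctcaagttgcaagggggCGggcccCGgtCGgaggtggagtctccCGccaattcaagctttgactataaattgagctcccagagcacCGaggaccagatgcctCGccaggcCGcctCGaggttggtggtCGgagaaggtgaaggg
Begain, chr12:109053049-109053348, minus strand: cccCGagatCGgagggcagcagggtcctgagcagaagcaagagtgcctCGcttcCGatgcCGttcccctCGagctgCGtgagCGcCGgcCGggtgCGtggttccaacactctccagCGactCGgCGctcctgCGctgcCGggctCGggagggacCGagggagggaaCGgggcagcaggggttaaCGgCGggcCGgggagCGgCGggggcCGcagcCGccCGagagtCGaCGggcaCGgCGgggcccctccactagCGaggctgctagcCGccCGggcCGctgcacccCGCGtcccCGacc
Ppp2r5c, chr12:110447272-110447571, plus strand: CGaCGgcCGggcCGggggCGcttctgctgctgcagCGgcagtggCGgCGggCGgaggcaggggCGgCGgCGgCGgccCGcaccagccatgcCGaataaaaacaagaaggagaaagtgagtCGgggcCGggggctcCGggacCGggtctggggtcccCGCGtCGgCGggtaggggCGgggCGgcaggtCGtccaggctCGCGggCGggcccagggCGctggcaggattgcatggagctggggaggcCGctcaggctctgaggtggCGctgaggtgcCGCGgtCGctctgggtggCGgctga
The motif searched was CG, which reads the same on both strands. The Dlk1 stretch holds 9 CG dinucleotides, and 45.8% of 32851 RefSeq mouse promoters of the same length hold as many or more. The Dio3 stretch holds 25 (18.4% of promoters hold as many), that of Begain 38 (4.95%) and that of Ppp2r5c 36 (6.23%), against a median of 7 over all promoters. Dlk1 thus has the fewest CG dinucleotides of the 4, and its run was the most enriched of the 4 on every array, by the mean over its probes. The runs are longer than the printed stretches, and a relation between CG count and enrichment was not tested.

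Enrichment is given as the log2 of processed Cy5 over Cy3 signal, centred on each array's median, and a run's value is the mean over its probes. The SD beside it is over the probes of the run and is not an error between cultures. The run at the Dlk1 start (chr12:109900751-109901755, 8 probes) had a log ratio of 1.63 ± 0.56 in clone 210-58, 1.73 ± 0.55 in clone 226-47, 2.02 ± 0.79 in PJ34-treated cells and 2.16 ± 0.66 in wild type. A second run inside Dlk1, 6.7 kb after its start (109907502 to 109907902, 4 probes), had 3.48 ± 0.75 in clone 210-58, 3.42 ± 0.58 in clone 226-47, 4.42 ± 0.61 in PJ34-treated cells and 4.10 ± 0.35 in wild type. Both deficient lines were below wild type in both Dlk1 runs, at the start in 7 of 8 probes in each line, while PJ34-treated cells were lower at the start and higher inside the gene. Over all probes of the array, 52.2% lay below wild type in clone 210-58, 44.8% in clone 226-47 and 46.2% in PJ34-treated cells. Among runs outside the domain with a log ratio of 2 or more in wild type, 64.5%, 92.5% and 38.8% lay below it in that order. Under intensity loess the differences of clone 226-47 from wild type turned to 0.38 at the start and 0.26 inside the gene, and that of PJ34-treated cells inside the gene, 0.32, turned to -0.065 under loess and -0.17 under quantile normalization. Within the run at the Dlk1 start, the first 3 probes averaged 1.74 in clone 210-58, 1.98 in clone 226-47, 2.80 in PJ34-treated cells and 2.86 in wild type. Its last 3 probes averaged 1.92 in clone 210-58, 1.78 in clone 226-47, 1.59 in PJ34-treated cells and 1.83 in wild type, so the lower values of the clones lay at the lower coordinates of this run. A run 53.0 kb before Dlk1 (109847344 to 109847843, 4 probes) had 3.09 ± 0.43 in clone 210-58, 3.19 ± 0.33 in clone 226-47, 3.44 ± 0.44 in PJ34-treated cells and 3.60 ± 0.52 in wild type, with all 4 probes of each deficient line below wild type. For clone 226-47 that difference, -0.41, turned to 0.31 under intensity loess and 0.040 under quantile normalization.

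The run between Dlk1 and Meg3, 12.7 kb before the Meg3 start (109975976 to 109976323, 4 probes), lies in the interval that holds the control region of the domain. Whether it lies inside that control region was not determined. Its log ratio was 3.11 ± 0.13 in clone 210-58, 4.29 ± 0.17 in clone 226-47, 4.89 ± 0.21 in PJ34-treated cells and 4.20 ± 0.13 in wild type. The 4 probes lay between 2.93 and 3.20 in clone 210-58, 4.14 and 4.48 in clone 226-47, 4.67 and 5.08 in PJ34-treated cells, and 4.11 and 4.39 in wild type. The probes of clone 210-58 did not overlap those of any other array, those of PJ34-treated cells lay above all others, and those of clone 226-47 and wild type overlapped. Neighbouring probes of a run are not replicates of a sample. How often such ranges lie apart over all runs was not counted, so nothing is read from it. Clone 210-58 differed from wild type by -1.09 in log ratio, by -0.68 in Cy5 and by 0.40 in Cy3, so both channels contributed to the lower ratio. Across 8 other ways of processing, that log ratio difference lay between -1.29 and -0.998. PJ34-treated cells differed from wild type by 0.69 here, and by 0.091 to 0.75 under the other ways of processing. Here the 2 clones, which carry the same labelled genotype, stood at -1.09 from wild type in clone 210-58 and 0.08 in clone 226-47. Each value rests on 1 array and 4 neighbouring probes. Clone 210-58 shared a slide with wild type, and clone 226-47 and PJ34-treated cells were on another slide. A difference between samples on unlike slides cannot be told apart from one between the slides.

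Dio3 and Dio3os share the run 110725551 to 110727824, which has 18 probes and also covers the microRNA gene Mir1247. Its log ratio was 0.77 ± 0.82 in clone 210-58, 0.43 ± 0.65 in clone 226-47, 1.07 ± 0.95 in PJ34-treated cells and 0.80 ± 1.21 in wild type. The wide SD in wild type came from 2 unlike stretches within the run, divided here after the values were seen. Picking a stretch where wild type was high favours values below wild type on the other arrays. The differences over these stretches are therefore a description only. The last 6 probes (110727206 to 110727824) averaged 1.60 ± 0.45 in clone 210-58, 0.61 ± 0.52 in clone 226-47, 2.12 ± 0.51 in PJ34-treated cells and 2.26 ± 0.69 in wild type. The first 12 averaged 0.36 ± 0.62 in clone 210-58, 0.34 ± 0.70 in clone 226-47, 0.54 ± 0.61 in PJ34-treated cells and 0.06 ± 0.55 in wild type. In wild type the enriched stretch was thus the one at the higher coordinates, whereas in clone 226-47 the stretches differed by less than the SD over their probes. Over the last 6 probes, the values of clone 210-58 minus those of wild type averaged -0.66, with 6 of 6 probes below 0. For clone 226-47 the average was -1.65, also with 6 of 6 below 0, and for PJ34-treated cells -0.15, with 4 of 6. Over all probes of the array the shares below 0 were 52.2% in clone 210-58, 44.8% in clone 226-47 and 46.2% in PJ34-treated cells. Among runs outside the domain at 2 or more in wild type, 64.5%, 92.5% and 38.8% lay below it in that order. The average of -1.65 for clone 226-47 ranged from -1.64 to -0.38 over 5 other ways of processing. In clone 226-47, Cy5 over these probes differed from wild type by -2.53 and Cy3 by -0.86, so the IP signal was lower by more than the whole DNA.

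**Figure D1:**
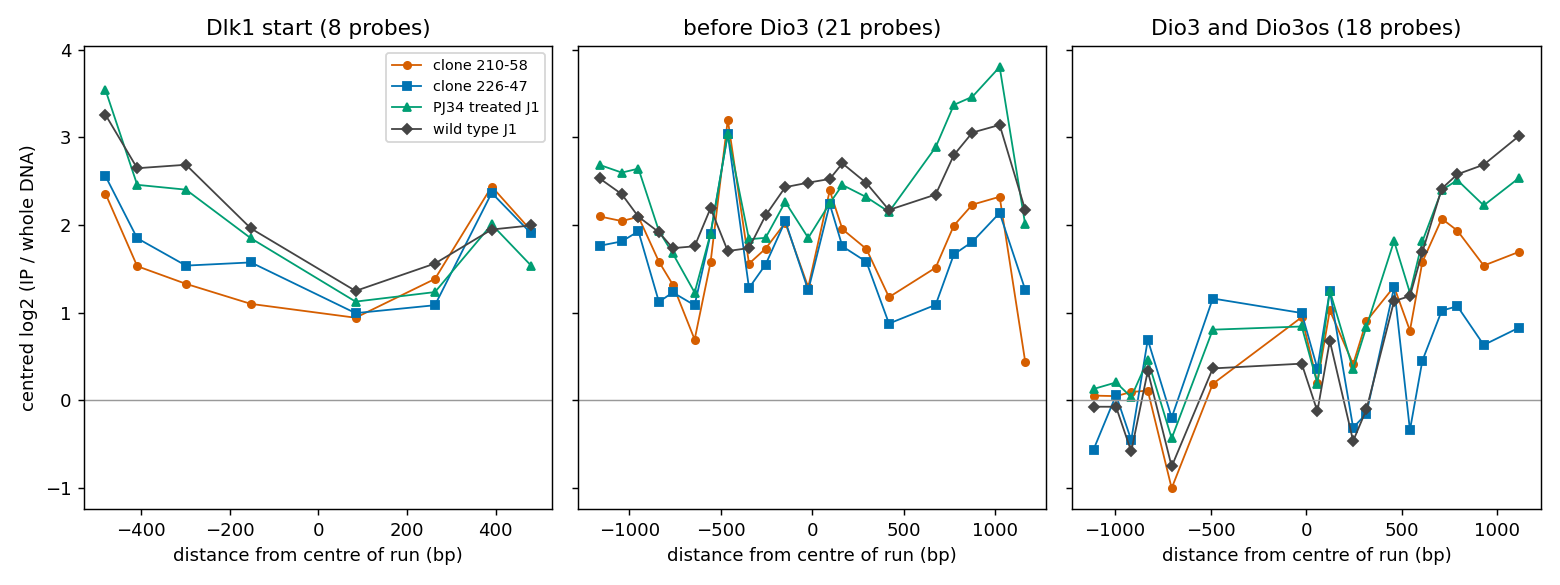
Centred log2 ratio of Cy5 over Cy3 (vertical axis) for each probe against its distance in bp from the centre of the run (horizontal axis), in 3 panels for the Dlk1 start (8 probes), the 21-probe run before Dio3 and the Dio3 run (18 probes), with 1 line for each of clone 210-58, clone 226-47, PJ34-treated J1 and wild type J1. In the Dio3 panel the last 6 probes, on the right, average 0.61 in clone 226-47, against 2.26 in wild type. These 6 probes were picked after the values were seen, where wild type was high.

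The longest run of the domain, 110635195 to 110637579 with 21 probes, lies between the noncoding 3110009F21Rik and Dio3os, 88.5 kb before the Dio3os start. Its log ratio was 1.76 ± 0.60 in clone 210-58, 1.64 ± 0.50 in clone 226-47, 2.39 ± 0.65 in PJ34-treated cells and 2.31 ± 0.41 in wild type. In each deficient line 20 of 21 probes lay below wild type, against 11 of 21 in PJ34-treated cells. The mean difference of clone 226-47 over this run, -0.67, turned to 0.12 under intensity loess. Over all probes, 52.2% lay below wild type in clone 210-58, 44.8% in clone 226-47 and 46.2% in PJ34-treated cells. Of runs outside the domain at 2 or more in wild type, the shares below it were 64.5% in clone 210-58, 92.5% in clone 226-47 and 38.8% in PJ34-treated cells. Beyond Dio3, a run of 3 probes 40.4 kb after its start (110767632 to 110767990) was the most enriched of the domain by its mean over the 4 arrays, with 4.31 ± 0.45 in clone 210-58, 3.75 ± 0.55 in clone 226-47, 4.80 ± 0.20 in PJ34-treated cells and 3.98 ± 0.43 in wild type. The probes of clone 210-58 overlapped those of every other array, and in PJ34-treated cells all 3 probes were above the same probes in wild type, by 0.61 to 1.05 (a mean of 0.82, and 0.31 to 0.82 over 8 other ways of processing). A run 94.0 kb after the Dio3 start (110821212 to 110821627, 3 probes) had 1.51 ± 0.73 in clone 210-58, 1.35 ± 0.86 in clone 226-47, 1.46 ± 0.63 in PJ34-treated cells and 1.97 ± 0.04 in wild type.

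The remaining 3 runs stand at gene starts on the flanks of the domain and had low enrichment. At Begain, which encodes a protein of synapses (109500041 to 109501500, 12 probes), the log ratio was 0.53 ± 1.26 in clone 210-58, 0.51 ± 0.88 in clone 226-47, 0.44 ± 0.94 in PJ34-treated cells and -0.05 ± 0.71 in wild type. At Ppp2r5c, a regulatory subunit of a protein phosphatase (110894321 to 110895536, 7 probes), it was 0.42 ± 1.40 in clone 210-58, 0.76 ± 1.29 in clone 226-47, 0.35 ± 1.77 in PJ34-treated cells and 0.02 ± 1.45 in wild type. At both starts all 3 other arrays lay above wild type, by less than the SD over the probes of the run. At B930059L03Rik, 9.5 kb before the start of Dync1h1, the dynein heavy chain gene (111039004 to 111039860, 8 probes), the log ratio was lowest of the domain on every array, with -1.56 ± 1.08 in clone 210-58, -1.07 ± 0.81 in clone 226-47, -1.36 ± 1.19 in PJ34-treated cells and -1.10 ± 1.17 in wild type.

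**Figure D2:**
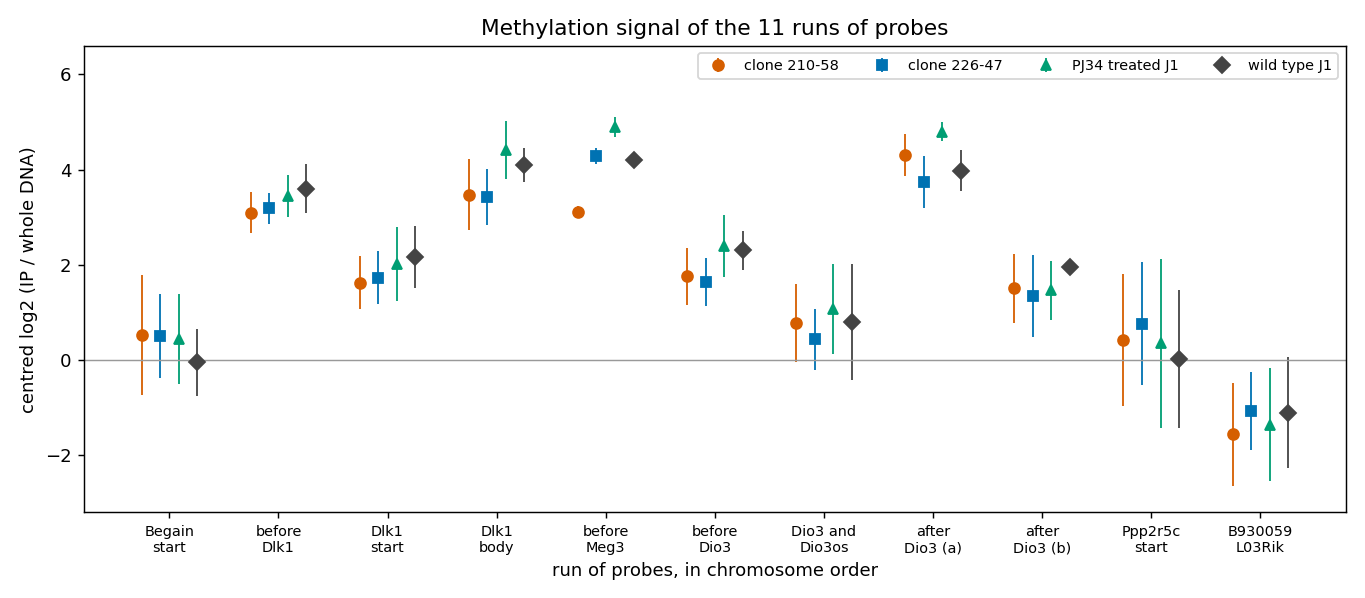
Centred log2 ratio of Cy5 over Cy3 (vertical axis) for the 11 runs of the domain in chromosome order (horizontal axis), with 1 point for each of clone 210-58, clone 226-47, PJ34-treated J1 and wild type J1. Points are means and bars the SD over the probes of a run; the run before Meg3 stands at 3.11 in clone 210-58 and at 4.20 or above on the other 3 arrays.

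Enriched runs were counted in the domain and over the array. A log ratio of 2 or more was reached by 4 of 11 runs in clone 210-58, 4 of 11 in clone 226-47, 6 of 11 in PJ34-treated cells and 6 of 11 in wild type. Over all 14121 runs the shares were 8.67% in clone 210-58, 6.31% in clone 226-47, 9.79% in PJ34-treated cells and 9.94% in wild type. The median log ratio of the 11 runs was 1.63 in clone 210-58, 1.64 in clone 226-47, 2.02 in PJ34-treated cells and 2.16 in wild type. In wild type the 4 highest runs, between 3.60 and 4.20, do not differ from their neighbours in that order beyond the SD of their probes, and the order of the next 3, between 1.97 and 2.31, is within that SD too. Elsewhere on the array, the 3 regions nearest to the most enriched run by their values on the 4 arrays were on chromosome 7 (45547219 to 45547417), chromosome X (119220253 to 119220850) and chromosome 5 (140052592 to 140052969), at Euclidean distances of 0.153, 0.159 and 0.205.

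The comparison of the 2 deficient lines with wild type asked whether methylation at CpG islands differs without Parp-1. Over the 11 runs the mean of the 2 lines lay below wild type in 8, against 48.6% of all runs, with a median difference of -0.46, against 0.01 over all 14121 runs. That background is unlike the domain, since 6 of 11 runs reached a log ratio of 2 in wild type, against 9.94% of all runs. Runs of like enrichment are compared below. In limma (trend, Benjamini-Hochberg adjustment over all runs), 0 of 11 runs passed an adjusted p of 0.05, against 2.78% of all runs. At an unadjusted p of 0.05 the count was also 0 of 11, against 12% of all runs, with a lowest p in limma of 0.0522 at Ppp2r5c (difference 0.58, SE 0.30), where the adjusted p was 0.425. Under normexp background correction Ppp2r5c passed (difference 0.80, adjusted p in limma 0.0197), and the median over the 11 runs was -0.10 under normexp and -0.089 under intensity loess. The share of all runs passing under normexp is not given here, so that call is not read as a result about the domain. The standard errors were 0.29 to 0.73, and the SD between the 2 lines ranged from 0.02 at Begain to 0.83 in the run before Meg3. The SD between the lines rests on 1 residual degree of freedom. The SE came instead from the trend over all runs, with 14121 total degrees of freedom. With so little replication, and with the denominator of clone 226-47 used in choosing the domain, the absence of calls is a description only.

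Taken singly, with 1 array on each side and no test, clone 210-58 differed from wild type by at least 1 in 1 of 11 runs, the run before Meg3, which was lower. Over all runs 6.31% differed by that size and 3% were lower by it. Its median difference over the 11 runs was -0.46, against -0.05 over all runs, with 8 below 0 (54.4% of all runs). Clone 226-47 reached that size in 0 of 11 runs, against 3.92% of all runs, with a median of -0.36, against 0.07 over all runs, and 7 below 0 (43.2% of all runs). PJ34-treated cells reached it in 0 of 11, against 3.7%, with a median of 0.27, against -0.01 over all runs, and 4 below 0 (51.2% of all runs). These 3 comparisons share the wild type array, so a run that was high or low in it moves all 3. Clone 226-47 and PJ34-treated cells were also on another slide than wild type, so slide cannot be told apart from their differences. The median of PJ34-treated cells took the other sign under quantile normalization (-0.11), that of clone 226-47 did so under intensity loess (0.31), and those of both clones shrank under normexp background correction, to -0.088 in clone 210-58 and -0.11 in clone 226-47.

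Runs at 2 or more in wild type were also set beside runs of like enrichment. The 6 such runs of the domain had median differences of -0.54 in clone 210-58, -0.42 in clone 226-47 and 0.20 in PJ34-treated cells. The 1398 such runs outside the domain had -0.21 in clone 210-58, -0.64 in clone 226-47 and 0.17 in PJ34-treated cells. Of the 6 runs, 5 lay below wild type in clone 210-58, 5 in clone 226-47 and 2 in PJ34-treated cells. Outside the domain the shares were 64.5%, 92.5% and 38.8% in that order. This was not tested, and for clone 226-47 it rests on the array whose Cy3 signal chose the domain.

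In clone 226-47 the whole DNA signal was low over most of this domain, as over the rest of the stretch. This is the value that chose the domain. The Cy3 signal of the 92 probes, as a centred log2 difference from wild type, had a median of -0.77 in clone 226-47 (58.7% of the wild type signal), -0.03 in clone 210-58 and -0.04 in PJ34-treated cells. It was below 0 in 90 of 92 probes in clone 226-47, against 51 of 92 in clone 210-58 and 55 of 92 in PJ34-treated cells. Over all 97179 probes the shares below 0 were 40.8% in clone 226-47, 50.2% in clone 210-58 and 48.4% in PJ34-treated cells. In clone 226-47, 9 of 11 runs were lower by at least 0.5, against 1.49% of all runs. The count was 0 of 11 in clone 210-58 (2.41% of all runs) and 0 of 11 in PJ34-treated cells (0.0142%). Under normexp background correction the median of clone 226-47 was -0.47. The raw Cy3 signal had a median of 204.5 in clone 226-47, 282 in clone 210-58, 277 in PJ34-treated cells and 298.75 in wild type, over a background of 42.5 in clone 226-47, so all 92 probes stayed well above background there. Wild type and clone 210-58 shared 1 slide, and clone 226-47 and PJ34-treated cells the other. Within that second slide, clone 226-47 minus PJ34-treated cells had a Cy3 median of -0.69 over the 92 probes and a median log ratio difference of -0.29 over the 11 runs. Across the whole array these medians were 0.02 over all probes and 0.08 over all runs. Loss of 1 of the 2 chromosomes' copies in every cell and a larger loss in some of the cells cannot be told apart in DNA of a whole culture.

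**Figure D3:**
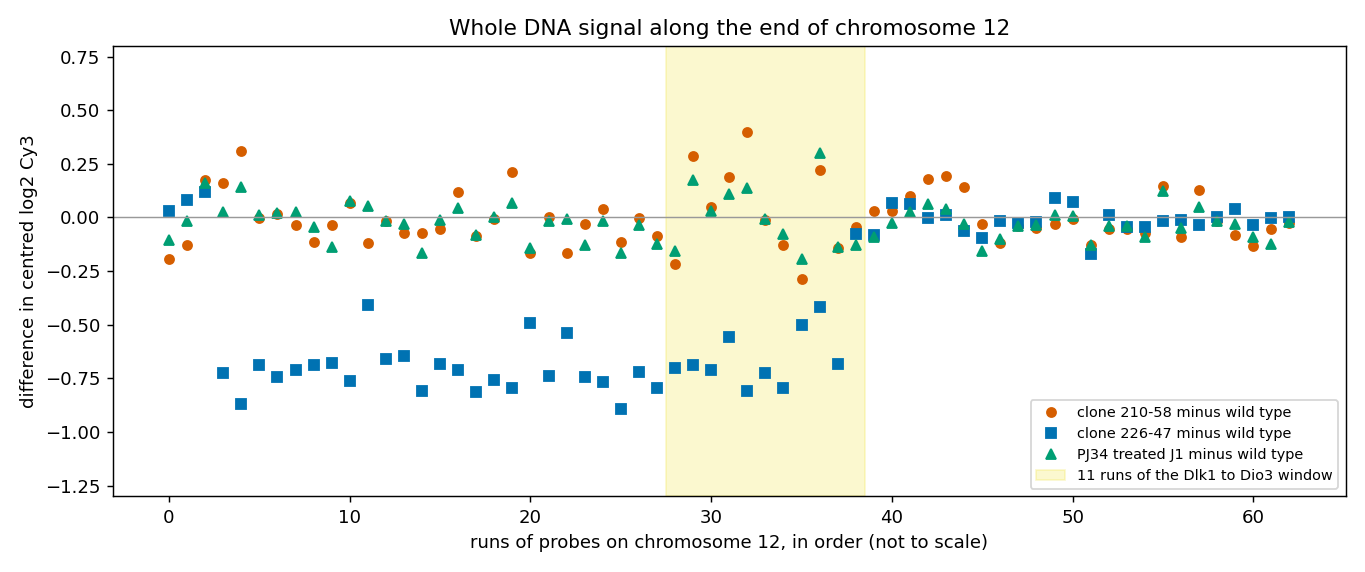
Centred log2 Cy3 difference from wild type (vertical axis) for runs near the end of chromosome 12 in chromosome order, not to scale (horizontal axis), with 1 point for each of clone 210-58, clone 226-47 and PJ34-treated J1 and the 11 runs of the domain shaded. In clone 226-47 the shaded runs lie between -0.81 and -0.08 and the 25 other runs of the low stretch, left of them, between -0.89 and -0.41, while the points of the other samples lie around 0 throughout.

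The low signal was shared by the rest of the stretch. Its other 202 probes had a Cy3 median of -0.76 in clone 226-47, against 0.05 over 3612 probes of chromosome 12 outside it. At the lower border, the probe at 106167880 stood at 0.11 and the next 2, at 106263660 and 106263853, at -0.68 and -0.81, just before the given start. At the upper border, the Ppp2r5c run was low, at -0.68, and the B930059L03Rik run, the next one on, was not, at -0.08, although its first 3 probes lie inside the given end. Without that run, 84 of 84 probes of clone 226-47 were below wild type, against 40.8% of all probes, with a median of -0.78 (58.1% of wild type). In the 9 runs lower by at least 0.5, the Cy3 difference ranged from -0.81 before Meg3 and -0.80 at Dio3 to -0.50 in the run 40.4 kb after Dio3. The run 94.0 kb after Dio3 stood just outside that size, at -0.42. Each of the runs after Dio3 at 40.4 and 94.0 kb has 3 probes.

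The Cy5 signal of immunoprecipitated DNA moved down with the whole DNA in clone 226-47. Its median difference from wild type over the 92 probes was -0.84 in clone 226-47, -0.27 in clone 210-58 and 0.10 in PJ34-treated cells. For the other 202 probes of the stretch it was -0.57, -0.09 and 0.001 in that order, and for all 97179 probes 0.07, -0.02 and 0.07. By run, clone 226-47 had its lowest Cy5 differences in the 21-probe run between 3110009F21Rik and Dio3os (-1.42), in the run inside Dlk1 (-1.26) and at Dio3 (-1.18), against Cy3 differences of -0.73, -0.56 and -0.80 in that order. At Begain and Ppp2r5c, Cy5 differed by -0.16 and 0.04 while Cy3 differed by -0.70 and -0.68, and there the log ratio was above wild type. The part of the lower copy signal in these log ratios was not tested.

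**Figure D4:**
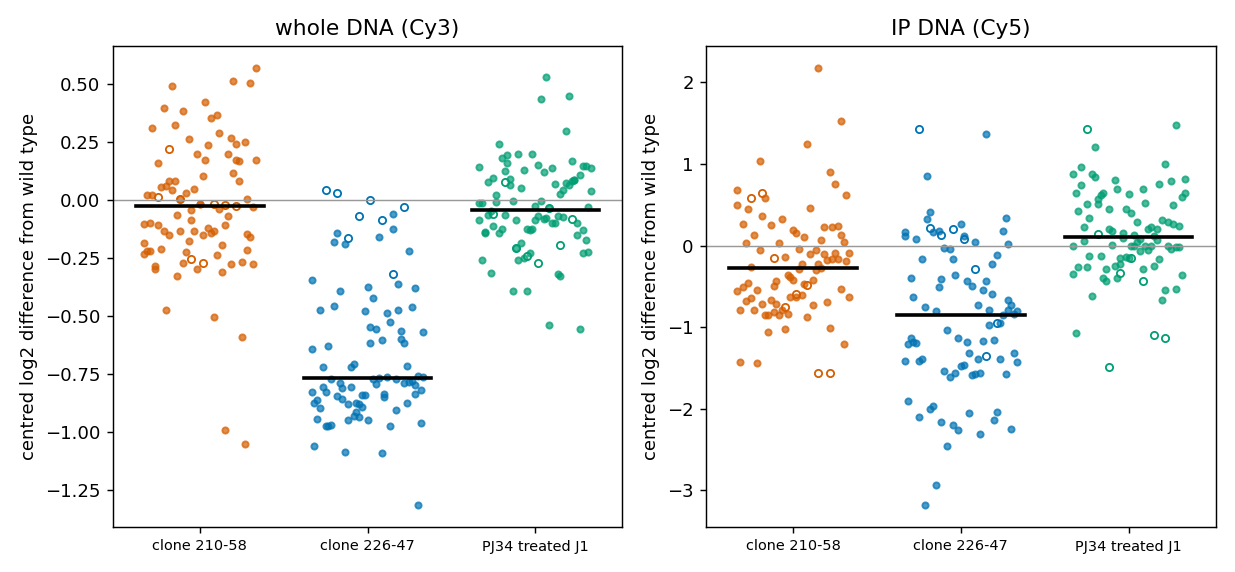
Centred log2 difference from wild type (vertical axis) of the Cy3 signal (left panel) and the Cy5 signal (right panel) for the 92 probes of the domain, in columns for clone 210-58, clone 226-47 and PJ34-treated J1 (horizontal axis). Points are probes, open circles the 8 probes of the last run, and black bars the medians, which in clone 226-47 stand at -0.77 for Cy3 and -0.84 for Cy5.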

How the data were processed

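The members and the genes looked for were chosen with earlier results of these data known. The labels' protocols describe sonicated genomic DNA and a pull-down with an antibody to methylated cytosine. Per the labels, the pulled-down DNA carried Cy5 and whole DNA Cy3, with no dye swap. Intensity was extracted with Agilent Feature Extraction, per the file headers in version 10.7.3.1 and per the submitters' processing notes in version 9.1, and the processed intensity is background-subtracted, spatially detrended and linearly dye-normalized. The deposited ratio per spot equals processed Cy5 over Cy3, linear and not centred (medians 0.826 in clone 210-58, 0.848 in clone 226-47, 0.814 in PJ34-treated cells, 0.891 in wild type). The flags deposited with each spot mark outliers, saturation and signal well above background.

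Control spots, 442 probes without a position and 30 with an outlier flag were left out, none of them in the domain. The log2 ratio was centred on each array's median, with no loess or quantile step. Runs had gaps of at most 500 bp and at least 3 probes. Every probe of the domain fell in such a run, and no filter on low values was applied. Cy3 and Cy5 differences were centred in the same way. limma 3.58.1 in R 4.3.3 compared the 2 deficient lines with wild type over all 14121 runs, and was tested on simulated data. Because limma put all weight on the prior variance, with 14121 total degrees of freedom, a run's SE reflects the trend with enrichment over all runs. It does not measure that run's own spread. The p-values set a difference against this pooled spread between the 2 deficient lines, and measure no variation beyond these samples. Comparisons of single arrays used a size of 1 on the log2 scale, with no test. The runs described are all 11 of the domain. Alternatives were normexp, loess, quantile normalization, other centring, run and filter settings, and, added after seeing the data, leaving out the last run. The number of arrays limits the precision.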

Additional observations from a re-analysis of the deposited data

How the results depend on the processing

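Background correction by normexp on median signals gave 1 limma call among the 11 runs (Ppp2r5c, difference 0.80, adjusted p 0.0197), where the deposited processed signals gave 0, and median log ratio differences from wild type of -0.088 in clone 210-58, -0.11 in clone 226-47 and -0.10 for the mean of both lines. It also left 2 runs at 2 or more in clone 210-58, and gave Cy3 medians of 0.11 in clone 210-58 and -0.47 in clone 226-47. Intensity loess gave medians of 0.31 in clone 226-47, 0.059 in PJ34-treated cells and -0.089 for both lines, and 1 run of clone 226-47 past the size of 1. Quantile normalization gave medians of -0.14 in clone 226-47 and -0.11 in PJ34-treated cells. With the median over probes, 0 runs of clone 210-58 passed the size of 1. With a size of 0.5, 6 runs passed it in clone 210-58, 5 in clone 226-47 and 3 in PJ34-treated cells. Shares over all runs are not given for these settings, so nothing about the domain is read from these counts. Leaving out a deficient line moved the median of both lines to between -0.46 and -0.36, with no residual degree of freedom and so no test. The cause of these shifts was not tested. Of 294 values of single runs under the alternatives, 92 moved by more than the spread used and 28 changed sign. Slide as a block was not run, since it leaves no residual degree of freedom. No paired analysis was run, because the sample labels name no pairs and only clone 210-58 of the deficient lines shared a slide with wild type.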
